A study of Mus musculus with 12 samples.

Results

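Genes for drug-conjugating and other detoxifying enzymes were described in the livers of mice given doxorubicin with or without the compounds K35 and K27. They were chosen by symbol, with earlier results of these data known. The families for oxidation and reduction were flavin monooxygenases (Fmo), alcohol and aldehyde dehydrogenases (Adh, Aldh), aldo-keto reductases (Akr), aldehyde oxidases (Aox) and quinone reductases (Nqo). The others were epoxide hydrolases (Ephx), carboxylesterases (Ces), UDP-glucuronosyltransferases (Ugt), sulfotransferases (Sult) and glutathione S-transferases (Gst, Mgst). Genes of these families were 42 of the 3799 genes in the deposited table. They were 9 Ugt, 8 Sult, 7 Aldh, 6 Gst or Mgst, 5 Ces, 3 Akr and 2 Fmo genes with Adh4 and Ephx2. No Aox or Nqo gene was among them. All 42 had a mean of at least 1 FPKM (a fragment count scaled to gene length and library size) and were tested among 3317 genes. The table is a selection of genes, by its name of differentially expressed ones, so shares refer to it and not to the transcriptome. How they were selected is not stated in the sources used here. If it was by these same libraries, calls and p-values come from genes already picked for differences, both for the 42 and for all genes tested. A gene missing from the table may still be expressed.

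Male C57BL/6J mice aged 8 weeks formed 4 groups with 3 liver libraries each. The DOX, DOX + K35 and DOX + K27 groups received doxorubicin, a DNA-damaging chemotherapy drug, intraperitoneally at 10 mg/kg on day 0 and day 7, and the Saline group, named vehicle in the sample labels, received saline. From day 2, the doxorubicin groups were dosed by stomach every other day with vehicle or with 50 mg/kg of K35 or K27, and livers were taken on day 20. Whether the Saline group was given that vehicle is not stated in the sources used here. The codes of the table and of the sample labels disagree. The table has B1, B3 and B4 for DOX and C1, C2 and C4 for DOX + K35. The labels have B1, B2 and B3, and C1, C2 and C3. B4 and C4 are thus in no label, and B3 is labelled as DOX replicate 3. Because the sets differ, B3, B4 and C4 were placed in their groups by the code letter and given no replicate number. The labels number the samples as replicates without saying which animals they came from, so p-values measure only the spread between these samples, which may be technical.

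The liver clears drugs and hormones in steps. Monooxygenases, dehydrogenases, reductases and hydrolases first expose or create a reactive group, and transferases then attach glucuronic acid, sulfate or glutathione so that the product can leave in bile or urine. Many of these genes are read from multigene clusters in hepatocytes, and several are known to be controlled by the oxidant sensor NRF2, by nuclear receptors and by the sex-dependent rhythm of growth hormone.

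The summed FPKM of the 42 genes was 5335, 5493 and 3707 in Saline replicates 1, 2 and 3. It was 3533 in DOX replicate 1, 2748 in B3 and 1309 in B4. It reached 5943 and 5918 in DOX + K35 replicates 1 and 2 and 6382 in C4, and 4947, 4333 and 3110 in DOX + K27 replicates 1, 2 and 3. Every DOX library thus lay below every Saline library and every DOX + K35 library, while DOX and DOX + K27 overlapped. The 13 mitochondrially encoded genes moved the other way between the groups. Their share of all FPKM was 48.2 to 61.9% in Saline, 62.2 to 83.3% in DOX, 37.9 to 48.7% in DOX + K35 and 50.01 to 68.0% in DOX + K27. As a share of the FPKM of the other genes, the detoxification genes made up 3.57% ± 0.679 in Saline and 2.22% ± 0.858 in DOX (SD, n = 3 each). With the compounds they made up 4.38% ± 0.237 for DOX + K35 and 3.17% ± 0.557 for DOX + K27. On that basis DOX replicate 1, at 2.90%, lay above Saline replicate 3, at 2.79%, so that only DOX + K35 remained separate from DOX. The part of the mitochondrial share in the member values was not tested, but fits with these genes left out are given for each comparison with DOX.

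**Figure D1:**
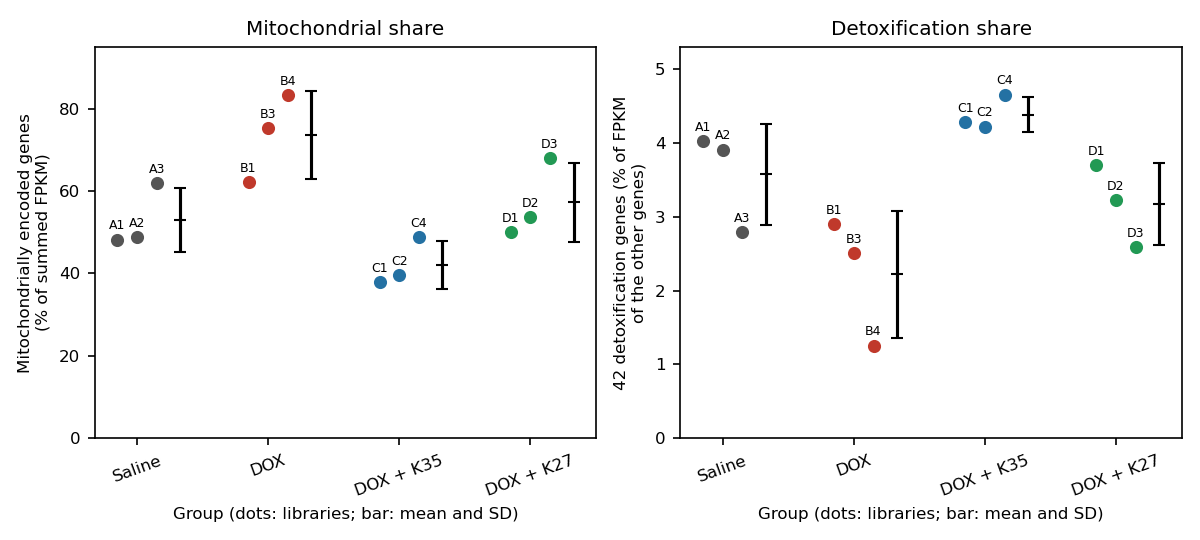
Share of the summed FPKM taken by the 13 mitochondrially encoded genes (left, %) and share of the other genes' FPKM taken by the 42 detoxification genes (right, %), by group. Dots are libraries with their table codes and bars are the mean and SD. The detoxification share was lowest in DOX library B4 at 1.25% and highest in DOX + K35 library C4 at 4.65%.

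Library B4 stood apart from the others. It was the lowest of all 12 libraries for 33 of the 42 genes, against 53.3% of all genes tested. Within their groups, Saline replicate 3 was lowest for 35 of the 42 and DOX + K27 replicate 3 for 34. C4 was the lowest of its group for 26, but its 9 genes that were highest of 12 were no more than the 9 of DOX + K35 replicate 2 and close to the 8 of replicate 1. For the counts within groups, the share over all genes was not computed. Libraries of 1 group had Pearson correlations of log2(FPKM + 1) between 0.937 and 0.992 across genes. The 6 hepatocyte marker genes in the table summed to between 8160 and 13980 FPKM in every library, and none of the genes was at 0. That sum was carried by Apoa1 and Apoc3, apolipoproteins with log2 changes of 0.46 and 0.10 in DOX against Saline, while those of the other 4, Cps1, Tat, Hpd and Apob, lay between −1.01 and −0.88, near the median of the detoxification genes. None of the 6 passed in that comparison. The 7 Kupffer cell markers summed to 78.9 to 213 FPKM in Saline, 19.6 to 55.7 in DOX, 54.7 to 90.0 in DOX + K35 and 57.7 to 104.6 in DOX + K27. The 4 globin markers of erythroid cells summed to 330 to 506 in Saline, 821 to 1135 in DOX, 62.2 to 596 in DOX + K35 and 452 to 1072 in DOX + K27. These cell-type values moved with the groups too, and their part in the results was not tested. In bulk liver, fewer cells of a type and less RNA per cell cannot be told apart.

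The comparison of DOX with Saline asks what doxorubicin did to these genes. Fold changes are differences of mean log2(FPKM + 1), which understate the change of genes with low FPKM, and p-values from limma were adjusted over all genes tested by the Benjamini-Hochberg method, with a threshold of 0.05. The fitted log2 change was below 0 for 36 of the 42 genes, with a median of −1.04, against a median of −0.34 over all genes. Without B4 these medians were −0.67 and −0.15. Only 1 gene passed the threshold, Sult2a3, against 0.181% of all genes called in either direction, while 26 of the 42 and 1572 of all 3317 had an unadjusted limma p under 0.05. In 16 of the 42 (38.1%) every DOX library lay below every Saline library, against 23.0% of all genes.

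Sult2a3 belongs to the Sult2a sulfotransferases, which sulfate bile acids and hydroxysteroids. It had 13.1, 8.04 and 5.01 FPKM in Saline and 1.62, 0.618 and 0.0797 in DOX, the last in B4. The groups did not overlap, and the log2 change was −2.46 (SE 0.43, adjusted p = 0.0359, limma). The call was lost when Saline replicate 1 or 2, B3, B4 or DOX + K27 replicate 3 was left out, 5 of 12 such fits, with a log2 change between −2.47 and −2.15 in them. The gene lies on the minus strand of chromosome 7 from 14067446 to 14123044 (GRCm38), and 8.36% of the 50-base words of its transcripts also occur in other genes, mainly other Sult2a genes. Its abundant relatives did not pass. Sult2a2 had 504, 508 and 411 FPKM in Saline and 323, 203 and 77.5 in DOX (log2 change −1.45, SE 0.43, adjusted p = 0.0612, limma), again without overlap. Sult2a7 went the other way in its means, with 3.67, 14.3 and 3.52 FPKM in Saline and 20.6, 21.9 and 6.40 in DOX, and its groups overlapped (log2 change 1.17, SE 0.61, adjusted p = 0.143, limma).

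The other conjugating genes were also mostly below Saline without passing. Ugt1a1, which conjugates bilirubin, had 452, 420.4 and 342 FPKM in Saline against 120.3, 256 and 117 in DOX (log2 change −1.39, SE 0.41, adjusted p = 0.0612, limma). Ugt3a2, which uses other UDP-sugars than glucuronic acid, had 122, 108 and 63.1 against 59.2, 29.0 and 14.2 (log2 change −1.66, SE 0.48, adjusted p = 0.0612, limma). Neither gene's groups overlapped, though for Ugt3a2 the 59.2 of DOX replicate 1 was close to the 63.1 of Saline replicate 3. The Gst genes had the median nearest 0 of the larger families, −0.54, and Gsta3, the most abundant member with 658, 672 and 423 FPKM in Saline and 487, 390.5 and 158 in DOX, overlapped between the groups. Among the genes of the first steps, Akr1c19, a reductase of the steroid-reducing Akr1c group, had 42.1, 34.8 and 19.5 FPKM in Saline and 13.9, 11.2 and 6.57 in DOX (log2 change −1.51, SE 0.40, adjusted p = 0.0612, limma). Ephx2, the soluble epoxide hydrolase that acts on epoxides of fatty acids, had 255, 233 and 159.5 against 135, 116 and 42.6. Aldh9a1, an aldehyde dehydrogenase of the carnitine pathway, had 88.9, 94.6 and 54.5 against 56.0, 31.4 and 13.5, where the groups overlapped. Adh4, an alcohol dehydrogenase that also oxidises retinol, had 49.1, 54.2 and 38.2 against 34.9, 23.5 and 10.8.

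How many genes passed in this comparison depended on the scaling and on single libraries. It was 13 with median-ratio scaling (31.0%), all lower, where 32.0% of all genes were called and 21.9% called lower. Removing the 20 highest genes gave 4 lower and 2 higher (14.3%), the latter Sult2a7 and Mgst3, where 33.8% of all genes were called, most of them higher. It was 29 without DOX replicate 1 or 22 without Saline replicate 3, all lower, and calls over the whole table rose as well, to 44.6% and 35.8% of all genes. It was 0 without each of Saline replicates 1 and 2, B3, B4 and DOX + K27 replicate 3. With the mitochondrially encoded genes left out and the rest rescaled, Sult2a3 was again the 1 gene called, and the median was −0.77 against −0.15 over all genes. The medians of the 42 genes stayed below the median of all genes under each scaling tried, at −0.82 to −0.45 with the 4 other scalings, but the sign changed for 3 of the genes, Fmo5, Gstp3 and Gstt2.

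**Figure D2:**
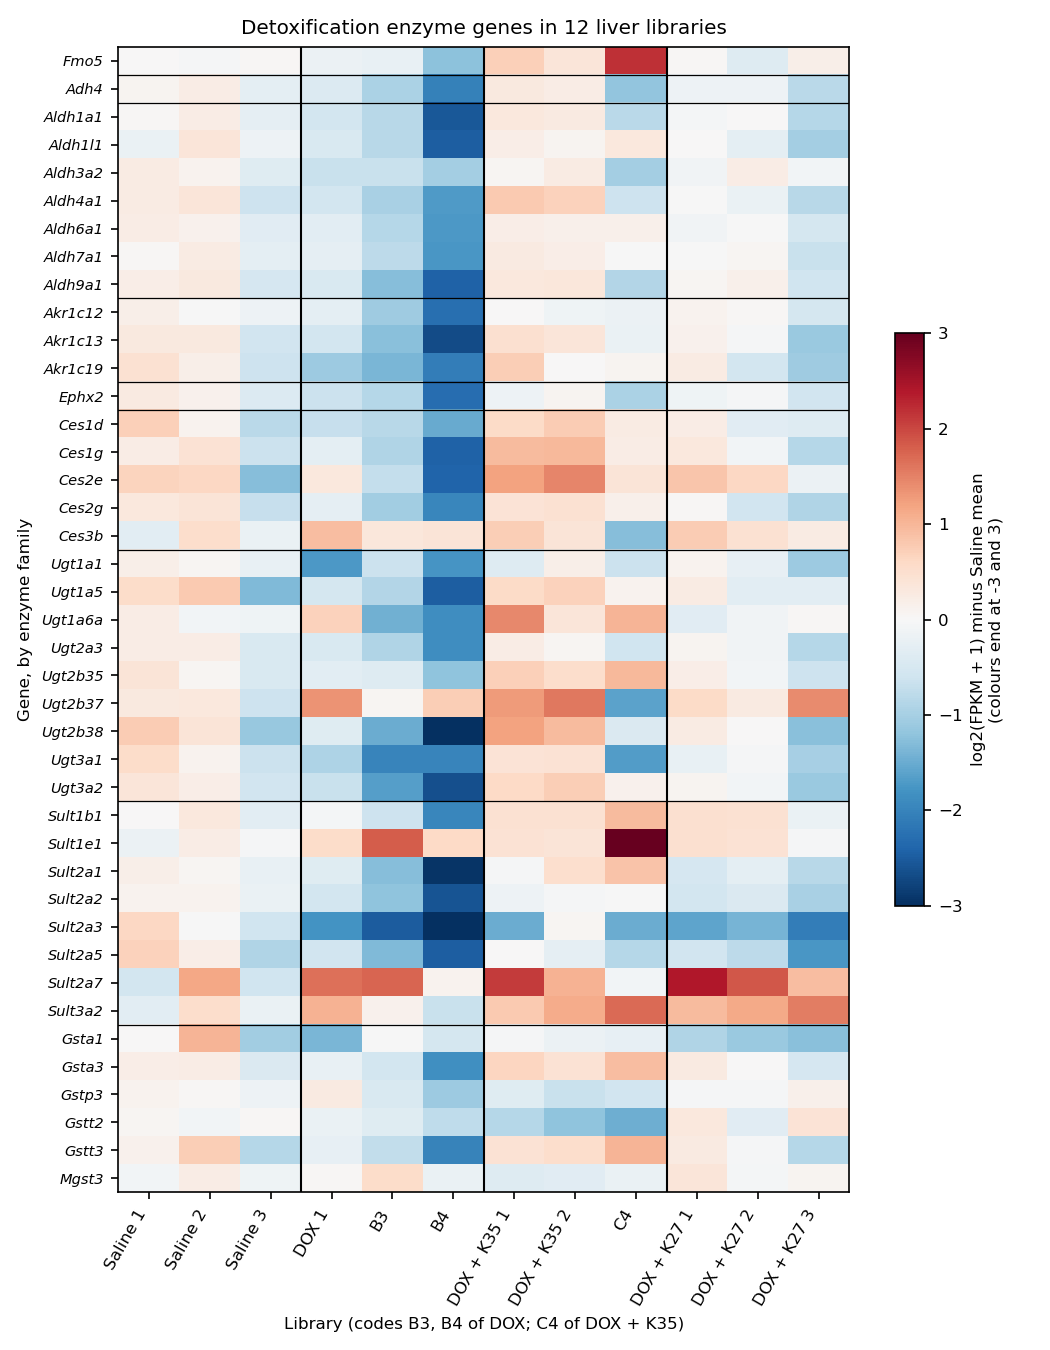
log2(FPKM + 1) of 41 of the 42 genes (rows, by enzyme family) in each of the 12 libraries (columns, by group), minus the mean of the 3 Saline libraries. Colours end at −3 and 3. Library B4 was the lowest of the 12 for 33 of the 42 genes, and in C4 Sult1e1 and Fmo5 were the highest of the 12.

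The comparison of DOX + K35 with DOX asks what K35 changed in doxorubicin-treated livers. Here 29 of the 42 genes (69.05%) rose and none fell, against 56.8% of all genes called in either direction and 46.0% called higher. The median log2 change was 1.37, against 0.46 over all genes, and 36 of the 42 were above 0. In 22 (52.4%) every DOX + K35 library lay above every DOX library, against 44.3% of all genes. All 3 Akr genes rose, as did Fmo5, 6 of 7 Aldh, 4 of 5 Ces, 7 of 9 Ugt, 5 of 8 Sult and 2 of 6 Gst genes. Adh4 and Ephx2 had log2 changes of 0.91 and 0.93 and did not pass (adjusted p = 0.0973 and 0.0851, limma).

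Among oxidising and reducing enzymes, Fmo5, a flavin monooxygenase, had 84.5, 80.8 and 40.3 FPKM in DOX and 156, 122 and 435 in DOX + K35 (log2 change 1.62, SE 0.44, adjusted p = 0.00836, limma). C4 held the highest value, and without it the change was 1.08 and still passed (adjusted p = 0.025, limma). Akr1c19 rose to 52.1, 30.9 and 32.3 FPKM (log2 change 1.79, SE 0.40, adjusted p = 0.00563, limma), and Akr1c12, the most abundant Akr gene, to 45.3, 40.9 and 39.8 from 36.7, 20.9 and 8.62. Without B4, the log2 change of Akr1c12 was 0.58 and did not pass (adjusted p = 0.103, limma).

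The Aldh genes that rose act on aldehydes of quite different origin. Aldh1l1, of folate metabolism, had 238, 182 and 57.5 FPKM in DOX and 373, 346 and 408 in DOX + K35 (log2 change 1.46, SE 0.47, adjusted p = 0.0162, limma). Aldh1a1, which makes retinoic acid, had 243, 201 and 60.5 against 446, 435 and 203, and Aldh4a1, of proline breakdown, 56.6, 41.7 and 24.9 against 144, 136 and 53.5. In both, as in Aldh9a1 with 96.8, 98.3 and 41.4 FPKM in DOX + K35, the C4 value was far under those of the other DOX + K35 libraries and overlapped DOX. Aldh1a1 passed narrowly (log2 change 1.24, SE 0.50, adjusted p = 0.0464, limma) and lost the call under all 4 other scalings.

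The carboxylesterases cleave ester drugs and lipids. Ces1d, a triacylglycerol hydrolase, had 154, 141 and 87.2 FPKM in DOX and 376, 425 and 297 in DOX + K35 (log2 change 1.54, SE 0.41, adjusted p = 0.00737, limma). Ces2e had 46.4, 22.4 and 6.23 against 88.0, 105 and 48.9 (log2 change 1.96, SE 0.64, adjusted p = 0.017, limma), and Ces2g, the least abundant Ces gene, 11.9, 6.60 and 3.06 against 19.7, 20.6 and 16.3. In all of these the groups were separate. Ces3b did not follow them. It had 212, 141 and 146 FPKM in DOX and 186, 145 and 45.5 in DOX + K35 (log2 change −0.60, SE 0.46, adjusted p = 0.273, limma).

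Among the glucuronosyltransferases the largest fitted rise was that of Ugt2b38, a gene of the steroid-conjugating Ugt2b cluster, with 9.35, 3.73 and 0.524 FPKM in DOX and 29.5, 24.7 and 8.83 in DOX + K35 (log2 change 2.23, SE 0.67, adjusted p = 0.0117, limma). Its groups overlapped, and without B4 the log2 change was 1.496 and did not pass (adjusted p = 0.0713, limma). Ugt3a2 rose to 144, 157 and 104 FPKM without overlap (log2 change 2.15, SE 0.48, adjusted p = 0.00563, limma), and Ugt2b35 from 21.6, 20.3 and 11.2 to 45.0, 39.3 and 53.8 (log2 change 1.37, SE 0.34, adjusted p = 0.00619, limma). Ugt1a1 reached 306, 455 and 257 FPKM, of which 257 was just above the 256 of B3. It passed (log2 change 1.10, SE 0.41, adjusted p = 0.0334, limma) but not under any of the 4 other scalings. Between 52.1 and 64.0% of the 50-base words of Ugt1a1, Ugt1a5 and Ugt1a6a are shared with other genes of this nested locus on chromosome 1, so reads could have been divided among them.

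Among the sulfotransferases, Sult2a1 had 254, 136 and 41.9 FPKM in DOX and 322, 465 and 601 in DOX + K35 (log2 change 1.97, SE 0.51, adjusted p = 0.00734, limma). Sult2a2 had 424, 458 and 471 in DOX + K35 (log2 change 1.38, SE 0.43, adjusted p = 0.0144, limma), and 62.1% of its 50-base words occur in other genes, mainly Sult2a relatives. Sult2a3 had 2.26, 8.49 and 2.26 (log2 change 1.49, SE 0.43, adjusted p = 0.00972, limma), all above the DOX libraries, and 2 of its values stayed under the lowest Saline value. Sult1e1, the oestrogen sulfotransferase, rested on 1 library. It had 0.804 and 0.751 FPKM in DOX + K35 replicates 1 and 2 but 349 in C4, which was 92.7 times the highest of the other 11 libraries, and it passed in none of the 6 comparisons.

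The glutathione S-transferases divided. Gsta3 rose to 899, 772 and 1085 FPKM (log2 change 1.55, SE 0.42, adjusted p = 0.00822, limma), above every DOX and Saline library, and Gstt3 rose as well (log2 change 1.66, SE 0.49, adjusted p = 0.0111, limma). Gstt2, of the theta class like Gstt3 and on the minus strand of chromosome 10 from 75831114 to 75837424 (GRCm38), had 84.0, 74.8 and 56.6 FPKM in DOX and 53.5, 41.5 and 34.9 in DOX + K35. The groups did not overlap and every DOX + K35 value was the lower, but the change did not pass (log2 change −0.72, SE 0.32, adjusted p = 0.0657, limma). Mgst3, a membrane-bound member, had 22.1, 31.8 and 18.7 against 16.3, 16.7 and 18.7 (log2 change −0.43, SE 0.27, adjusted p = 0.182, limma). Both Gstt2 and Mgst3 were called lower under each of the 4 other scalings, and Gstt2 also without B4, at −0.88 (adjusted p = 0.0306, limma). The median of the 6 Gst genes was 0.19 and turned to between −0.41 and −0.07 under those scalings.

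**Figure D3:**
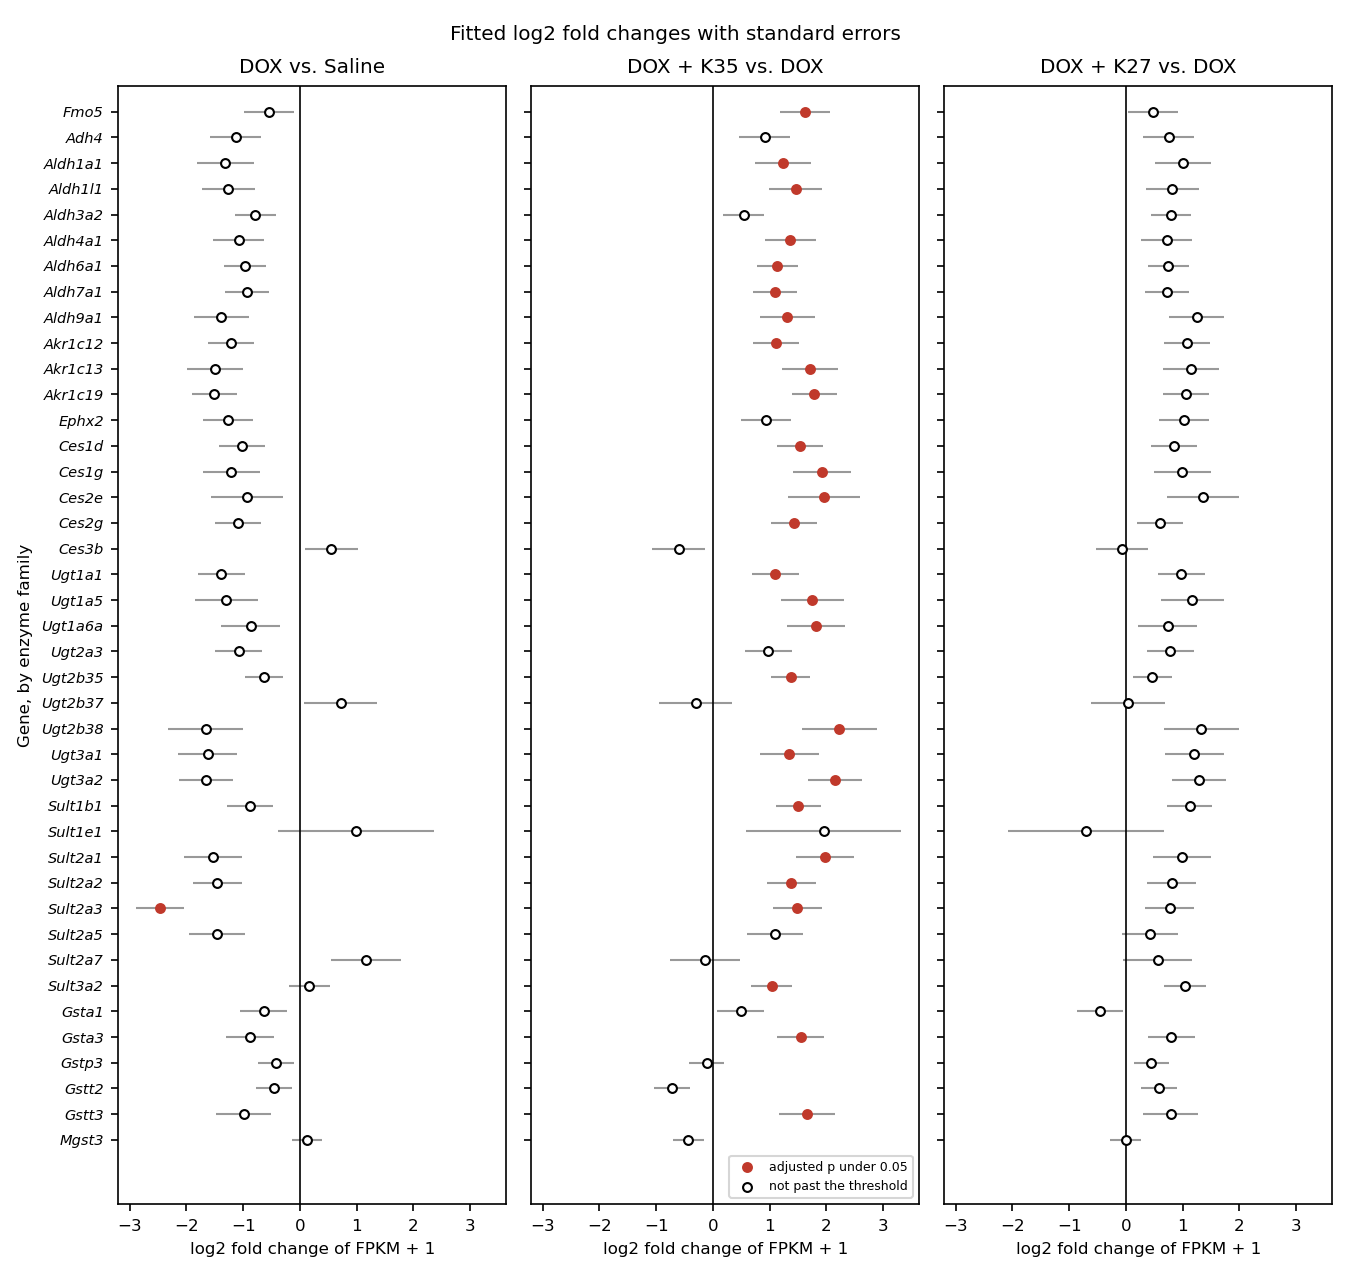
Fitted log2 fold change of FPKM + 1 for 41 of the 42 genes in 3 comparisons, with bars of 1 standard error. Filled points passed an adjusted p of 0.05 (limma). Filled points number 1 for DOX against Saline, 28 for K35 and none for K27, both against DOX. The 3 comparisons share the DOX libraries.

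Of the 29 genes that rose, 15 passed in all 12 fits that each left out 1 library, 15 passed under all 4 other scalings, and 12 did both. Among the 12 were Akr1c13, Akr1c19, Ces1d, Ces1g, Ces2g, Gsta3, Sult1b1, Sult2a1, Ugt1a6a, Ugt2b35 and Ugt3a2. The number of genes called was 16 without B4 (38.1%), of which Gstt2 was lower, and 18 without DOX + K35 replicate 2 (42.9%), where 49.5% and 45.4% of all genes were called, so neither share was above that of the table. It was 33 of 41 without C4 (80.5%), against 63.4% of all genes. Without both B4 and C4 it was 24 (58.5%), 23 higher and 1 lower, against 63.0%. With the mitochondrially encoded genes left out and the rest rescaled, 23 were higher and 2 lower, against 42.5% and 27.2% of all genes, and the median was 1.07 against 0.23 over all genes. Quantile normalization gave 18 higher and 4 lower, against 38.0% and 31.9% of all genes, and leaving out the 20 highest genes 17 higher and 4 lower, against 27.5% and 43.5%. The lower calls were Gstt2, Mgst3, Gstp3 and Ces3b. The sign changed with the scaling for Aldh3a2 and Gsta1, neither of which was called in the deposited FPKM. The median of all genes itself moved between −0.13 and 0.46 over the 5 scalings, while that of the 42 stayed between 0.67 and 1.37.

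**Figure D4:**
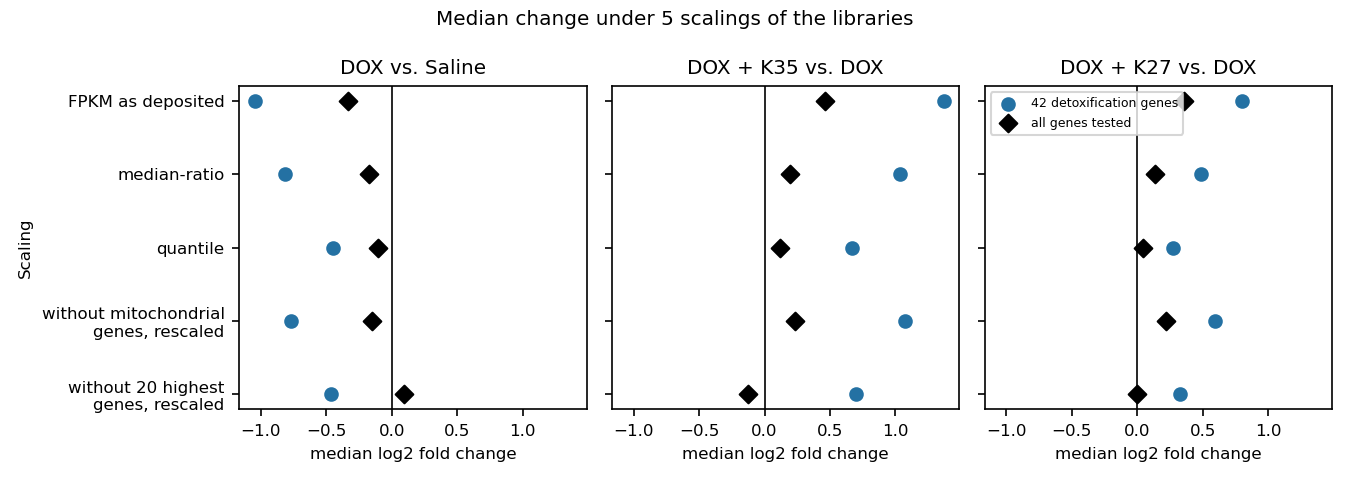
Median log2 fold change of the 42 detoxification genes (circles) and of all genes tested (diamonds) with the FPKM as deposited and under 4 other scalings, in 3 comparisons. In DOX + K35 vs. DOX the circles lie between 0.67 and 1.37 and the diamonds between −0.13 and 0.46.

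The promoters of the detoxification genes were searched for TGACNNNGC, the core of the antioxidant response element that NRF2 binds. Both strands were searched, from 250 bases before to 50 after the start. RefSeq promoters of GRCm38.p6 were at hand for 33 of the 42 genes, which have 37 promoters. The core occurred in 3 of the 37 (8.11%), against 12.4% of all 32851 mouse promoters and 13.7% of the 3525 promoters of genes in the table. Those 3 belong to Akr1c19, Gsta3 and Aldh9a1, which all rose in DOX + K35, as did 23 of the 33 genes with a promoter. The genes that rose have 27 promoters, of which 11.1% held the core, a share not above that of the table. For Aldh9a1 the groups overlapped, and removing a single library cost it the call in 4 of 12 cases. The 3 promoters are shown to 20 bases past the start, 5′ to 3′ on the plus strand, with the matched letters in capitals. They lie at chr13:4233490-4233759 for Akr1c19, chr1:21240335-21240604 for Gsta3 and chr1:167349741-167350010 for Aldh9a1.
Akr1c19: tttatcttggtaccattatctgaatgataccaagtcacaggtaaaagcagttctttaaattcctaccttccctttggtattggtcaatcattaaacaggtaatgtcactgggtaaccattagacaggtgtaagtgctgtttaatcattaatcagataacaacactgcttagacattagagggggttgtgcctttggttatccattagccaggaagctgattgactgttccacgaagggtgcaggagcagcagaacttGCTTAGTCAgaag
Gsta3: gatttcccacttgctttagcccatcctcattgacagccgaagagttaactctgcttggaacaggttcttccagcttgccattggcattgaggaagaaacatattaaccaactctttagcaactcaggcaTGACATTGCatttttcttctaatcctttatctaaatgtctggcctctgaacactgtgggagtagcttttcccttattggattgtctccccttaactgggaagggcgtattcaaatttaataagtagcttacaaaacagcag
Aldh9a1: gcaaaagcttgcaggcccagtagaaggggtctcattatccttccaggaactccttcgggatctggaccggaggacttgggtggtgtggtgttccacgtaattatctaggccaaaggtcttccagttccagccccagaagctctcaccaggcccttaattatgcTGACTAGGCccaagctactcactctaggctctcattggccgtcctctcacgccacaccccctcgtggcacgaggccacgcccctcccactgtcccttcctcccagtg
The match begins at base 8 of the transcript in Akr1c19, where it is on the minus strand, and 121 and 87 bases before the start in Gsta3 and Aldh9a1, where it is on the plus strand. A match in letters is a description of the window and says nothing of binding.

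The comparison of DOX + K27 with DOX asks the same of K27, an analog of K35 given at the same dose and times. No gene of the 42 passed (limma), against 0.0603% of all genes, while 12 of the 42 and 973 of all genes had an unadjusted p under 0.05. The smallest adjusted p was 0.155. The log2 change was above 0 for 38 of the 42, with a median of 0.80 against 0.36 over all genes. Without B4 these medians were 0.39 and 0.16. With the mitochondrially encoded genes left out, no gene was called and the medians were 0.60 and 0.22, and the other scalings gave medians of 0.27 to 0.49 for the 42. In 6 (14.3%) every DOX + K27 library lay above every DOX library, against 15.9% of all genes.

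The largest fitted change was that of Ces2e, with 67.3, 57.7 and 32.99 FPKM in DOX + K27 (log2 change 1.36, 95% interval 0.00 to 2.72, adjusted p = 0.17, limma). Ugt3a2 had 101, 88.5 and 43.2 FPKM (log2 change 1.29, 95% interval 0.27 to 2.31, adjusted p = 0.155, limma), and DOX + K27 replicate 3 fell within the range of DOX. Akr1c19, with 36.7, 20.7 and 14.2 FPKM, was separate from DOX by a narrow margin, since DOX replicate 1 had 13.9. Gsta3, at 690.1, 576 and 406 FPKM, overlapped DOX. Sult2a3, with 2.05, 2.47 and 1.16 FPKM, overlapped DOX, where the highest value was 1.62, and lay below every Saline library. Its log2 change from DOX was 0.77 (adjusted p = 0.218, limma). Without DOX replicate 1, 18 of the 42 genes (42.9%) were called higher in DOX + K27, as were 32.6% of all genes, and without each of the other libraries in turn none was. Fmo5, Gstp3, Ugt2b35 and Ugt2b37 changed sign with the scaling in this comparison.

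K35 and K27 were also compared with each other, which is 1 pair of compounds at matched dose and time. Of the 42 genes, 1 differed, against 2.11% of all genes, and 5 of the 42 and 941 of all genes had an unadjusted p under 0.05. The median log2 difference, DOX + K35 minus DOX + K27, was 0.58 against 0.10 over all genes, and 0.34 to 0.56 for the 42 with the 4 other scalings. In 13 (31.0%) every DOX + K35 library was the higher, against 30.6% of all genes.

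The gene that differed was Gstt2, with 53.5, 41.5 and 34.9 FPKM in DOX + K35 and 122, 76.4 and 131 in DOX + K27. Its DOX + K35 values were the lowest 3 of all 12 libraries, and its DOX + K27 values lay around those of Saline, 101, 91.2 and 100.2. The log2 difference was −1.31 (SE 0.32, 95% interval −1.98 to −0.63, adjusted p = 0.0485, limma). The call held under all 4 other scalings, with adjusted p from 0.0118 to 0.033 (limma), and was lost in 9 of 12 fits with 1 library removed, all but those without Saline replicate 3, DOX replicate 1 or B4, where the adjusted p reached 0.189 and the difference lay between −1.54 and −1.16. The other Gst genes whose libraries were all lower with K35 were Gstp3 and Mgst3, and neither passed (adjusted p = 0.22 and 0.253, limma).

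For the other genes the intervals were wide. Ugt2b35 had 31.2, 25.6 and 17.2 FPKM in DOX + K27, all below DOX + K35 (log2 difference 0.90, 95% interval 0.18 to 1.63, adjusted p = 0.129, limma). The interval was 0.19 to 2.09 for Fmo5 and −0.16 to 1.64 for Gsta3, so a difference of a full log2 unit in favour of K35 could not be told from a far smaller one. For Akr1c12 the difference was 0.03 (95% interval −0.84 to 0.90) and for Ugt1a1 0.13 (95% interval −0.75 to 1.00), which leaves room for differences in either direction. The sign of both differences, and of those of 6 further genes, changed with the scaling.

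**Figure D5:**
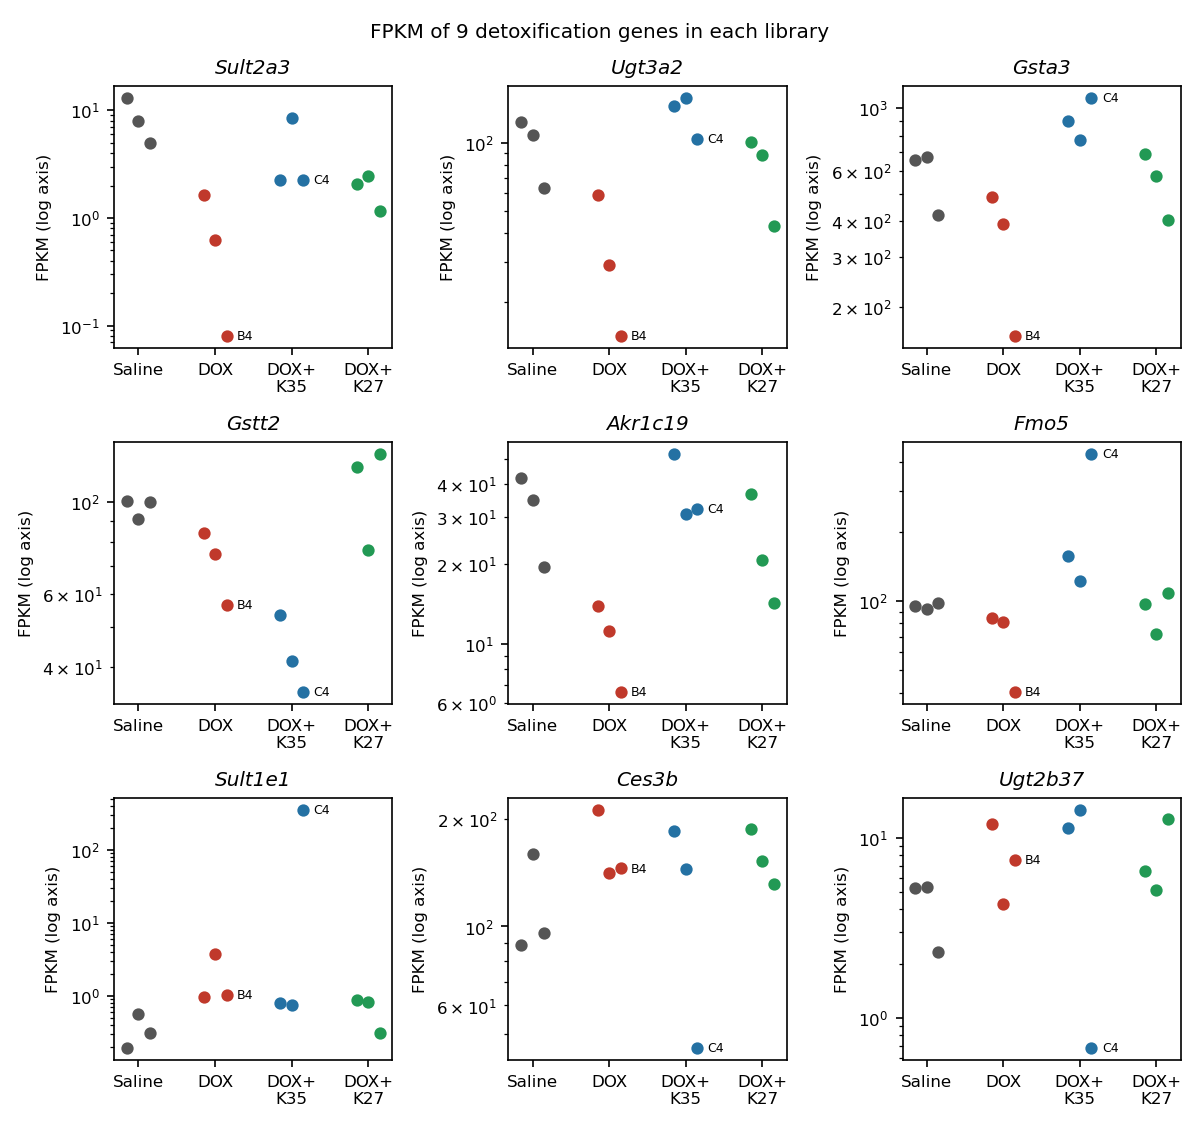
FPKM of 9 detoxification genes in each library, on a log axis, by group. Each dot is 1 library, and B4 and C4 are marked. Gstt2 is lowest in DOX + K35, and C4 is far from the other DOX + K35 libraries in Sult1e1, Fmo5, Ces3b and Ugt2b37.

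Against Saline, no gene of the 42 passed in DOX + K35 or in DOX + K27 (limma), where 0.181% and 0.121% of all genes did. The counts at an unadjusted p under 0.05 were 7 of the 42 and 551 of all genes for DOX + K35, and 4 of the 42 and 197 of all genes for DOX + K27. The median log2 difference from Saline was 0.24 with K35 and −0.21 with K27, against 0.13 and 0.00 over all genes. Without Saline replicate 3, the K35 median was −0.02. The lowest values were those of Gstt2 with K35 (log2 difference −1.17, SE 0.32, adjusted p = 0.170, limma) and Sult2a3 with K27 (log2 difference −1.69, SE 0.43, adjusted p = 0.241, limma). Sult2a7 had the largest fitted difference above Saline with K27, where it had 35.1, 23.9 and 12.1 FPKM (log2 difference 1.73, SE 0.61, adjusted p = 0.607, limma).

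The DOX + K35 libraries did not share 1 profile. Library C4 had 0.678 FPKM of Ugt2b37, against a mean of 12.8 in DOX + K35 replicates 1 and 2, 4.89 against 24.3 of Ugt3a1 and 45.5 against 165 of Ces3b. It had 3.12 times their mean of Fmo5. Adh4 was 2.80 times lower in C4 than in their mean, and Aldh4a1 2.62 times lower. Across all genes, log2 values of replicates 1 and 2 correlated at 0.992, and those of C4 with theirs at 0.946 and 0.937 (Pearson). The globin sum was lowest in C4 as well, at 62.2 FPKM.

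Other genes of the same chemistry were taken from lists chosen by function. Over all genes tested, 46.0% were called higher and 10.7% lower in DOX + K35 against DOX, and the counts of each list stand beside these shares. Of the genes that supply glutathione, UDP-glucuronic acid, sulfate donor and electrons, 6 of 19 listed were in the table and 5 rose in DOX + K35 against DOX. Por, the reductase that passes electrons to cytochromes P450, had 114.5, 86.6 and 63.3 FPKM in DOX and 269, 252 and 368 in DOX + K35 (log2 change 1.76, adjusted p = 0.00496, limma). Gsr, which regenerates glutathione, had 11.2, 7.34 and 3.605 against 18.6, 18.9 and 20.6 (log2 change 1.39, adjusted p = 0.00581, limma). Of 24 NRF2 target genes listed outside the families, 9 were in the table and 8 were tested. Of these, 7 rose, with Gsr counted in this list as well. Another of the 7 was Txnrd1, thioredoxin reductase, which went from 19.0, 16.9 and 9.10 to 43.4, 34.7 and 41.7 FPKM (log2 change 1.41, adjusted p = 0.00516, limma). Nfe2l2, which encodes NRF2, had 30.2, 37.7 and 29.8 FPKM in DOX and 27.4, 25.1 and 30.3 in DOX + K35 (log2 change −0.23, adjusted p = 0.447, limma). Of the 5 transcription factors tested, 3 rose, of 11 other conjugation and detoxification enzymes 9, and of 6 sex-dependent genes outside the families 2. None of these lists had a gene that fell in that comparison.

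In DOX against Saline the same lists held 1 called gene, Acot3 of the sex-dependent list, an acyl-CoA thioesterase, with 48.5, 51.7 and 18.9 FPKM in Saline and 7.17, 6.64 and 5.10 in DOX (log2 change −2.36, adjusted p = 0.048, limma). It was also the 1 called gene of these lists in DOX + K27 against DOX, with 52.5, 54.3 and 36.9 FPKM in DOX + K27 (log2 change 2.73, adjusted p = 0.0368, limma). Of the marker lists, 4 of 6 hepatocyte, 4 of 7 Kupffer cell and 2 of 3 endothelial genes rose in DOX + K35 against DOX, and 4 of 4 erythroid, 1 of 5 stellate and 1 of 2 lymphocyte genes fell. The 1 neutrophil marker in the table did not pass, and no cholangiocyte marker was in the table. These counts stand against the 46.0% of all genes called higher and the 10.7% called lower.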

How the data were processed

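Poly-A RNA of 12 mouse liver samples was sequenced on an Illumina NovaSeq, and the authors deposited 1 table of expression levels by gene. No unit is named in it, and the deposited values were treated as FPKM. Per the labels, the submitters' processing notes name HISAT2, DESeq2 and edgeR, without versions, and the build GRCm38. Read counts were not part of it, so depth and counting error are unknown, and errors given are those between libraries.

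Values were transformed as log2(FPKM + 1), where the pseudocount is 1, a mean of at least 1 FPKM was required, and the 3317 genes that met it were modelled by group with limma 3.58.1 in R 4.3.3 (lmFit, then eBayes with its trend option), all 12 libraries together. Benjamini-Hochberg adjustment was made within each of 6 comparisons. The fits were also run on simulated data drawn for each gene independently. Those data lack the shifts shared across genes of a library, such as those of B4, so the run does not bear on the calls reported here. Members and gene lists were chosen with earlier results of these data known. Within each family, the genes named are the most abundant and those with the smallest p in DOX vs. Saline, DOX + K35 vs. DOX and DOX + K35 vs. DOX + K27, together with called genes of the smaller comparisons and the largest rise and fall per comparison. Others were named after their values were seen. The values of 1 member are not reported here, though counts and medians over the 42 include it. The lists were markers of hepatocytes, Kupffer, endothelial, stellate, cholangiocyte, lymphocyte, neutrophil and erythroid cells, and the 5 function lists of the report.

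Libraries coded B3, B4 and C4 carry a group but no replicate number here. Groups came from the sample labels, and for B3, B4 and C4 from the code letter alone. P-values measure the spread between these libraries. Same-numbered Saline and DOX + K27 libraries, which came from different mice, had correlated deviations from their group means (0.258, 0.176 and 0.474 across genes). Over all same-numbered libraries of different groups, these correlations were 0.109 to 0.474. The main fits took no libraries as pairs. An alternative fit with a block on replicate number left the count of called members between Saline and DOX + K27 at 0. Positions, overlaps and shared 50-base words came from GENCODE M21, in which all 42 symbols matched. Of the 42, 12 share over 20% of these words with other genes, and 11 overlap another gene on their strand and 9 on the other, so their values are uncertain where reads were divided. Promoters came from RefSeq, and 9 members had none. The alternatives were 4 scalings, a pseudocount of 0.1, no filter, fits of the 2 groups compared, removal of each library in turn, and a block on replicate number. Removal of B4 and C4 together was added after seeing the data. Python 3.11.15, pandas 2.3.3, numpy 2.4.6 and matplotlib 3.10.9 were used.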

Additional observations from a re-analysis of the deposited data

Results flagged for a closer look

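Gstt2 differed between the effects of the compounds added to doxorubicin. Against DOX, the fitted log2 change was −0.72 with K35 and 0.58 with K27, and the test of the difference itself gave −1.31 (SE 0.32, adjusted p = 0.0485, limma, over all genes tested). All 3 DOX + K35 libraries lay below all DOX and all DOX + K27 libraries. The comparisons with DOX share the DOX libraries.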

How the results depend on the processing

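In DOX vs. Saline, 1 member was called, against 13 with median-ratio scaling, 3 with quantile normalization, 6 without the 20 highest genes, 0 with a pseudocount of 0.1, 0 without libraries B4 and C4 together, and 0 to 29 without each library in turn. In DOX + K35 vs. DOX, 29 were called, and 16 to 33 without each library in turn. A fit of only these 2 groups called 21 of the 42, all higher, where 49.8% of all genes were called. In that fit the share of members called was close to that of the table. Median-ratio scaling called 26 higher and 2 lower, or 66.7% of members, against 78.1% of all genes. Of all genes, 43.9% were called higher and 34.2% lower under that scaling. In DOX + K27 vs. DOX, 0 were called, and 0 to 18 without each library in turn. In DOX + K35 vs. DOX + K27, 1 was called, against 2 with median-ratio scaling, 2 with quantile normalization, 2 without the 20 highest genes, 0 with a pseudocount of 0.1, 2 without B4 and C4 together and 0 to 1 without each library in turn. A fit of only these 2 groups also called 1, but it was Gsta1, higher, and Gstt2 was not called (adjusted p = 0.0574, limma). The cause of these moves was not tested. The median of the members in DOX + K35 vs. Saline was 0.24, turned to −0.02 without Saline replicate 3 and reached 0.42 without C4. Only 2 numbered DOX + K35 libraries can be matched with DOX + K27 and Saline. Their numbers were used only as a block in an alternative fit. With a replicate block on the numbered libraries, 18 members were called in DOX + K35 vs. DOX + K27, 16 higher and 2 lower (43.9%), as were 44.0% of all genes, where the same libraries without the block gave 2, and 1 in DOX + K35 vs. Saline, Gstt2, where they gave 0. Of the 6 numbered Saline and DOX + K27 libraries, 2 correlated best with their own number. No paired analysis was made for DOX because only 1 of its libraries was given a number here. Without C4, Sult1e1 fell under the filter and 41 members were tested. Without read counts, what depth limits is unknown.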
